A study of Mus musculus with 6 samples.

Results

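The messages described here encode 29 proteins of the small ribosomal subunit, out of 13231 genes tested in these libraries. They were chosen by name, as genes for cytosolic 40S proteins with processed pseudogenes left out, and not by any measured value. Earlier results of these data were known when the choice was made. All 29 were found and all 29 passed the filter on low counts. Poly(A) RNA came from E14, a line of mouse embryonic stem cells, treated with cycloheximide shortly before harvest in both groups. The 3 eluate libraries hold RNA from ribosomes recovered with the RAPIDASH method, in which material spun through a sucrose cushion is passed over a resin charged with cysteine and eluted. The 3 pellet libraries hold RNA extracted from cushion material that did not go over the resin. The cushion material was divided between both uses, but the labels do not say that equal numbers mark parts of the same material, nor that the replicates are separate cultures, so each p-value refers to the spread among these libraries, which may be technical. The comparison asks what the resin step adds to the cushion alone, in 1 cell line.

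The small subunit reads the message. It is made of 1 ribosomal RNA and a set of proteins arranged in a head, a body and a platform, with the message running through the cleft between head and body. Ribosomal protein messages are short, abundant and heavily translated in growing cells, and stem cells make many ribosomes. Many of them begin with a C followed by a run of pyrimidines, the 5′ terminal oligopyrimidine tract, through which the mTOR pathway and the binding protein LARP1 control their translation. Cycloheximide holds elongating ribosomes on the messages they are reading.

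The region around the annotated start is shown for the messages with the 4 highest and the 4 lowest log2 fold changes of eluate over pellet, since the tract lies there. Each window holds 30 bases of the sense strand from RefSeq on GRCm38.p6, of which the first 9 lie before the annotated start. Capitals mark a C followed by at least 4 C or T letters whose first base lies within 10 bases of the start.
Rps13: aaacgtcggtgagtggcgtcacttcctgtg
Rps16: tctgtcgtgacgtagcactcaatgcgcctg
Fau: CCCCCaCTTCTTCCTCTTTCTTgactccat
Rps10: cgcacgCCCCTTCCTTTCCagcctccgcct
Rpsa: tatttaaggacgtcatttccggccgcccgt
Rps7: ggtttccacccacctaCTTCCgctgtcccc
Rps24: ctggggtCCTTCCTTgcgcgttgatatgat
Rps3a1: ccggaagggcgaaagagcaagggtcacgta

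These windows lie at chr7:116334170-116334199 on the minus strand for Rps13, chr7:28350680-28350709 on the plus strand for Rps16, chr19:6057938-6057967 on the plus strand for Fau and chr17:27635224-27635253 on the minus strand for Rps10. Those of the lowest messages lie at chr9:120127757-120127786 on the plus strand for Rpsa, chr12:28635933-28635962 on the minus strand for Rps7, chr14:24490669-24490698 on the plus strand for Rps24 and chr3:86142648-86142677 on the minus strand for Rps3a1. Rps24 has 2 annotated starts in the RefSeq table, of which 1 is shown. Both ends of the ranking hold messages with and without marked letters. Over all 25 messages with an entry in the RefSeq table, 16 (64%) had such a run near an annotated start, against 34.4% of the 27025 genes in that table. Among the messages called higher in the eluates 10 of 17 with an entry had it, and among the messages not called 6 of 8. A match is only a description of these letters, and annotated starts can differ by some bases from the start used in these cells.

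Library totals were 7.84e+06 to 1.16e+07 estimated counts. All 9 stem cell markers examined, Pou5f1, Nanog and Sox2 among them, stood at 175 to 4318 normalized CPM (counts scaled to a common library size, with TMM factors) in every library, with a summed level of 11441 to 11588 CPM in the eluates and 9122 to 9761 CPM in the pellets. Single stem cell markers went both ways. Dppa5a stood at 4171 to 4318 CPM in the eluates and 2796 to 2986 CPM in the pellets. Sox2 stood at 362 to 406 CPM in the eluates and 445 to 483 CPM in the pellets, and Zfp42 was also lower in the eluates. The 10 markers of endoderm, mesoderm, neural cells and fibroblasts stood at 0 to 20.7 CPM. Their summed level was 44.0 to 49.7 CPM in the eluates and 34.9 to 38.5 CPM in the pellets, 5 of them reached 1 CPM in every library, none was at 0 in all libraries, and their part in the results was not tested. Pellet 1 stood apart, with a chi-square per gene of 14.1 to 18.0 against the other pellets, while those differed from each other by 3.55. Against the eluates the chi-square per gene was 32.9 to 35.7 for pellet 1 and 65.5 to 81.9 for pellets 2 and 3. Over all genes pellet 1 was thus nearer to the eluates than the other pellets were. In bulk libraries fewer cells of a type and less RNA per cell cannot be told apart, and each value is a share of a library's messages, not an amount per ribosome.

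Small subunit messages took a larger share of the eluates than of the pellets. They made up 6.57%, 6.66% and 6.54% of the matched estimated counts in eluates 1 to 3, against 5.49%, 5.63% and 5.58% in pellets 1 to 3. Every eluate lay above every pellet, with means of 6.59% ± 0.0605 in the eluates and 5.57% ± 0.0738 in the pellets (SD, n = 3 each), a difference of 1.02 percentage points. The 95% Wilson intervals of single libraries, which cover counting error only, were 6.53% to 6.56% in the lowest eluate and 5.62% to 5.65% in the highest pellet. The messages of the large subunit also took a larger share, 10.2% ± 0.190 in the eluates and 8.32% ± 0.154 in the pellets. The ratio of small to large subunit messages, on the length-adjusted TPM scale, was 0.691 ± 0.00806 in the eluates and 0.707 ± 0.00467 in the pellets.

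By edgeR's quasi-likelihood test with Benjamini-Hochberg adjustment over all genes, 18 of the 29 messages were higher in the eluates, with an adjusted p under 0.05 as the threshold, and 0 were lower. Over all genes tested, 24.5% were called higher and 28.2% lower. Those lower at an unadjusted p under 0.05 were also 0, and DESeq2 called 19 higher, Rps27l being the addition, and 0 lower. On log2(TPM + 1) limma called 17 higher and 0 lower, with a median log2 fold change of 0.17 over the 29. The log2 fold changes of eluate over pellet ran from -0.11 for Rps3a1 to 0.69 for Rps13, with a median of 0.26, which is 1.20-fold, beside a median of 0.0035 over all genes. The changes were small: 2 messages, Rps13 and Rps16, reached 1.5-fold, and the other 16 called messages lay below it. In 19 messages every eluate lay above every pellet, where 29.1% of all genes did so, and in none did every eluate lie below every pellet, where 31.2% of all genes did. With the trend of each library in GC content and length removed, 9 messages were higher (19% of all genes) and 5 lower (15.9%), with a median of 0.06, so this count depends on that setting.

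**Figure D1:**
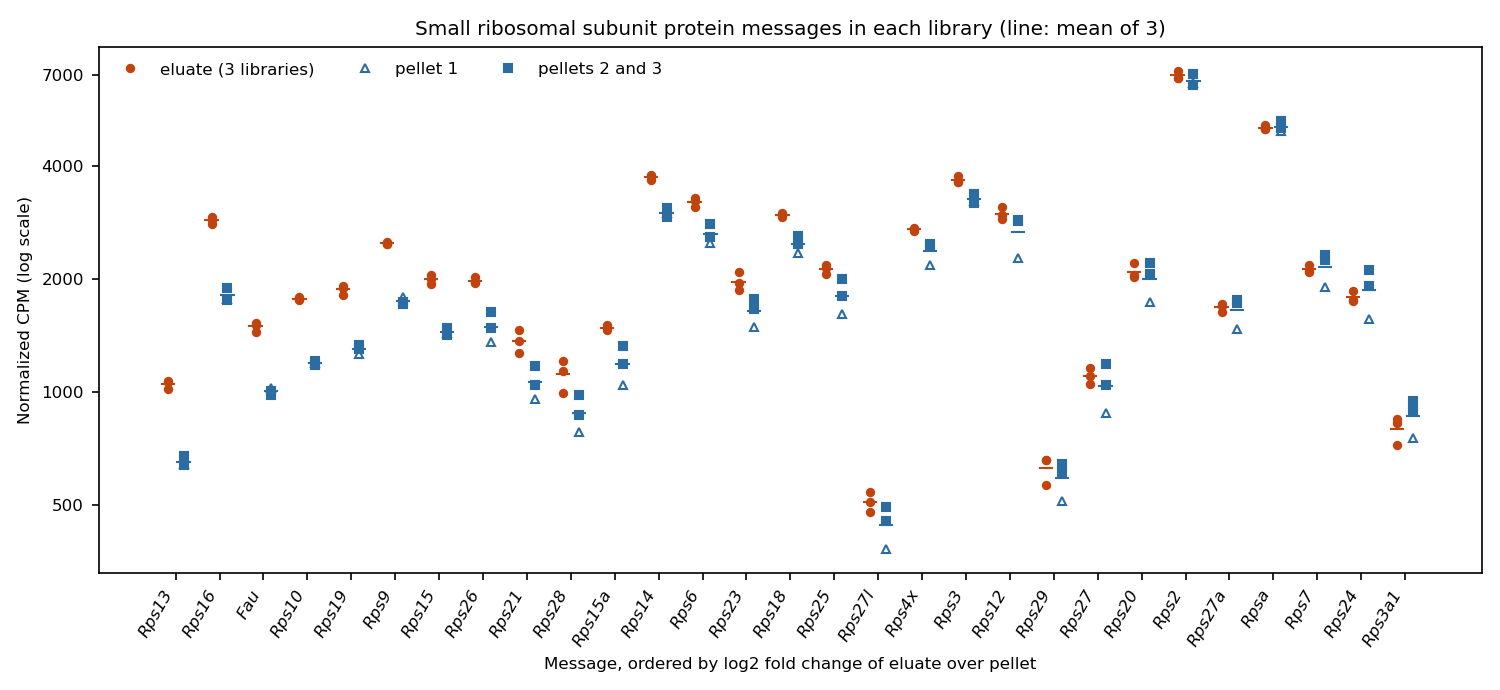
Normalized CPM (log scale) of each of the 29 messages in the 3 eluates (left of each pair) and the 3 pellets (right), with the mean as a line, ordered by log2 fold change. The groups are separate for most messages on the left, Rps13 at 1022 to 1068 CPM in the eluates and 640.5 to 675 CPM in the pellets, and overlap on the right, where pellet 1 (open triangle) is often the lowest pellet.

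The largest changes were in messages of both the body and the head. Rps13, a body protein at a bridge to the large subunit, had 1064, 1068 and 1022 CPM in eluates 1 to 3, against 642, 675 and 640.5 CPM in pellets 1 to 3. Its groups lay far apart, with a log2 fold change of 0.69 ± 0.062 (SE; 1.61-fold; edgeR adjusted p = 4.32e-07), the smallest p among the 29. With the GC and length trend removed it was still higher, at 0.41 (edgeR adjusted p = 2.85e-07). Rps16, a head protein whose tail reaches the transfer RNA in the P site, had 2869, 2932 and 2807 CPM in the eluates, against 1773, 1898 and 1763 CPM in the pellets. The groups were separate, at 0.66 ± 0.0625 (SE; 1.58-fold; edgeR adjusted p = 6.24e-07), and the message was still called higher, at 0.44, after trend removal.

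Rps10, Rps9, Rps3 and Rps2 encode proteins near the entry of the message. Rps10, a head protein that stalled-ribosome quality control marks with ubiquitin, had 1771, 1795 and 1758 CPM in the eluates, against 1193, 1213 and 1181 CPM in the pellets. No library crossed between groups, and the change was 0.57 ± 0.0601 (SE; edgeR adjusted p = 1.7e-06), but 0.06 and not called after the GC and length trend was removed (edgeR adjusted p = 0.388). Rps9, which helps shape the entry channel, was at 0.51 and likewise at 0.06 after trend removal.

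Rps3, the entry channel protein that is also marked in quality control, had 3626, 3754 and 3635 CPM in the eluates, against 3235.5, 3195 and 3373 CPM in the pellets. The groups did not overlap in CPM, but by a narrow margin, with a change of 0.17 ± 0.0606 (SE; edgeR adjusted p = 0.0286). On the TPM scale pellet 1, at 3796, lay above the eluates, at 3548 to 3637. With limma on log2(TPM + 1) Rps3 was at 0.08 and not called (limma adjusted p = 0.405). The edgeR call was lost without eluate 1, 2 or 3 (edgeR adjusted p = 0.0742, 0.136 and 0.0635) and without pellet 2 (0.0536). Rps2, whose message gave the most counts of all 29, had 6867, 6879.5 and 7169.8 CPM in the eluates, against 6648, 6589 and 7039.7 CPM in the pellets. Its groups overlapped, at 0.04 ± 0.061 (SE; edgeR adjusted p = 0.565), and it was called lower, at -0.50, after trend removal.

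Fau and Rps27a are made as fusions, Fau with a ubiquitin-like protein and Rps27a with ubiquitin, and their messages differed in the comparison. Fau, whose ribosomal part lies at the entry and decoding side, had 1511, 1530.2 and 1448 CPM in the eluates, against 1026, 1010.0 and 983 CPM in the pellets. The eluates were all higher, at 0.57 ± 0.0617 (SE; edgeR adjusted p = 2.06e-06), yet the value was -0.04 and not called once the trend was removed (edgeR adjusted p = 0.589). Its GC content, 59.6%, was the highest of the 29. Rps27a, in the head, had 1693, 1718 and 1638 CPM in the eluates, against 1471, 1762 and 1723 CPM in the pellets. Here pellet 1 was the lowest library and pellets 2 and 3 the highest pair, and the change was 0.03 ± 0.0729 (SE; edgeR adjusted p = 0.781). The difference between the changes of Fau and Rps27a was not tested.

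Of the head proteins, 8 of 12 were called higher and none lower, with a median of 0.25, and of the body and platform proteins 10 of 17 were called higher and none lower, with a median of 0.26. In the head, Rps19, the gene most often mutated in human Diamond-Blackfan anaemia, was at 0.53 (edgeR adjusted p = 4.22e-06), and Rps15, at the decoding side of the head, at 0.47. Rps28, near the exit of the message, was at 0.34, Rps18, which contacts transfer RNA, at 0.26, and Rps25, which some viral internal ribosome entry sites need, at 0.24. These 5 messages were separate between the groups. The Rps25 call was lost without eluate 1, eluate 2 or pellet 3 (edgeR adjusted p = 0.0574, 0.0705 and 0.0507), and after trend removal Rps25 was still higher at 0.34. In that fit Rps19 was at -0.07, Rps15 at -0.07 and Rps28 at 0.07, none of them called (edgeR adjusted p = 0.349, 0.38 and 0.549), and Rps18 was called lower at -0.14 (edgeR adjusted p = 0.0496).

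The head messages not called were Rps12, Rps20, Rps27a and Rps29. Rps12, which in Drosophila takes part in cell competition, was at 0.16 with every eluate above every pellet (edgeR adjusted p = 0.121), and it was called at 0.18 without scaling factors (edgeR adjusted p = 0.0336). Without pellet 1 it was at 0.06 (edgeR adjusted p = 0.412). Rps29, a small zinc-binding protein, was at 0.09. Rps20, which is also marked with ubiquitin when ribosomes collide, had 2028.5, 2203 and 2047 CPM in the eluates, against 1735, 2211 and 2063 CPM in the pellets. Apart from the lower pellet 1, its libraries fell in the same range, and the change was 0.06 ± 0.0817 (SE; edgeR adjusted p = 0.544).

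In the body, platform and exit region, Rps14, a platform protein near the path of the message, had 3763, 3784 and 3663 CPM in the eluates, against 2994, 2919.9 and 3091 CPM in the pellets. Every eluate was higher, at 0.32 ± 0.0605 (SE; edgeR adjusted p = 0.000403), and with the trend removed the value was -0.12 and not called (edgeR adjusted p = 0.0874). Rps26, at the exit of the message, was higher at 0.41, Rps21, a small protein beside Rpsa, at 0.37 and Rps15a, a body protein, at 0.32. Rps26 and Rps15a were still higher after trend removal, at 0.32 and 0.50. Rps23, a decoding centre protein, was at 0.26, and its call was lost without eluate 2 (edgeR adjusted p = 0.06). Rps4x, the X-linked body protein, was at 0.20, and its call was lost without eluate 1, 2 or 3 (edgeR adjusted p = 0.0716, 0.0808 and 0.0528).

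Rps6, the substrate of the S6 kinases downstream of mTOR, had 3229.7, 3289 and 3121 CPM in the eluates, against 2502, 2802 and 2588 CPM in the pellets. The eluates lay above all pellets, with a change of 0.29 ± 0.0649 (SE; edgeR adjusted p = 0.00148). It was at 0.08 and not called after trend removal (edgeR adjusted p = 0.227).

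Rps27 and Rps27l are paralogs encoding near-alike zinc-binding proteins of the platform, and Rps27l is known as a p53 target. On the TPM scale Rps27 was the highest of the 29, with 1.02e+04 ± 393 TPM in the eluates and 9663 ± 942 TPM in the pellets, and Rps27l the third lowest, with 1923 ± 53.3 TPM in the eluates and 1781 ± 91.1 TPM in the pellets (SD, n = 3 each). Rps27 had 1104, 1160.1 and 1050.0 CPM in the eluates, against 879, 1192 and 1045 CPM in the pellets. Rps27l had 510.1, 540.4 and 481 CPM in the eluates, against 383, 494 and 453 CPM in the pellets. Both overlapped between the groups, pellet 1 being the lowest library for each. The changes were 0.09 ± 0.0944 for Rps27 (SE; edgeR adjusted p = 0.455) and 0.20 ± 0.0852 for Rps27l (SE; edgeR adjusted p = 0.0576). Without pellet 2 both were called higher, Rps27 at 0.21 (edgeR adjusted p = 0.04998) and Rps27l at 0.29 (edgeR adjusted p = 0.00922), and Rps27l was also called at 0.22 without scaling factors (edgeR adjusted p = 0.0208). Without pellet 1 Rps27 was at -0.02 (edgeR adjusted p = 0.791) and Rps27l at 0.11 (edgeR adjusted p = 0.128), neither called.

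The 4 lowest messages had negative fold changes that did not pass the test. Rpsa, whose protein is also known as the laminin receptor, had 5016, 5017 and 5149 CPM in the eluates, against 4965, 5049 and 5275 CPM in the pellets. Its libraries were interleaved, at -0.01 ± 0.0603 (SE; edgeR adjusted p = 0.902), and the sign turned without scaling factors, at 0.0057. Rps7, which also binds the p53 regulator MDM2, had 2094, 2179 and 2097 CPM in the eluates, against 1902, 2325 and 2253 CPM in the pellets. All eluates fell between the lowest pellet and the other pellets, and the change was -0.02 ± 0.075 (SE; edgeR adjusted p = 0.808).

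Rps24, a body protein also mutated in human Diamond-Blackfan anaemia, had 1745, 1854 and 1761 CPM in the eluates, against 1565, 2116 and 1919 CPM in the pellets. Rps3a1, a platform protein, had 829, 847 and 723 CPM in the eluates, against 756, 948 and 892 CPM in the pellets. In both, pellets 2 and 3 lay above every eluate and pellet 1 did not. The changes were -0.06 ± 0.0922 for Rps24 (SE; edgeR adjusted p = 0.596) and -0.11 ± 0.0862 for Rps3a1 (SE; edgeR adjusted p = 0.288). Without pellet 1 both were called lower, Rps24 at -0.18 (edgeR adjusted p = 0.00656) and Rps3a1 at -0.20 (edgeR adjusted p = 0.00341).

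Pellet 1 touched many of these values. It was the lowest pellet for 20 of the 29 messages, the middle for 7 and the highest for 2, while pellet 2 was the highest for 23. The coefficient of variation had a median of 2.53% over the eluates and 8.49% over the pellets, and 26 messages varied more over the pellets. Without pellet 1 the same 18 messages were called higher (27.5% of all genes), 2 were called lower (29.9%), and the median fell to 0.19 on the log2 scale, against 0.26 with all libraries. Across the 29 messages, the log2 difference of pellet 1 from the mean of pellets 2 and 3 went with GC content (Pearson r = 0.64, Spearman rho = 0.63), a description over messages that share these 3 libraries.

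The 29 messages span a GC content of 41.3% to 59.6%, with a median of 51.6%, beside 50.8% over all genes tested. Their coding sequences are short, 171 to 888 bases with a median of 438, against 1347 over the 12229 protein-coding genes tested. The fold change went with GC content across the 29 (r = 0.43, rho = 0.42) and only weakly with coding length (r = -0.26, rho = -0.18). With the GC trend alone removed, 16 messages were higher (22.3% of all genes) and 2 lower (18.8%), with a median of 0.25. The lower ones were Rps2 at -0.27 and Rpsa at -0.17. With the GC and length trend removed, the relation to GC content within the 29 ran the other way (r = -0.65, rho = -0.59).

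In that last fit 7 of the 18 messages were still higher, which were Rps13, Rps16, Rps26, Rps15a, Rps23, Rps25 and Rps3. A further 10 were not called and Rps18 was lower. Of the 11 messages not called before, Rps20 and Rps27l were higher, at 0.86 and 0.46, and Rps2, Rps7, Rpsa and Rps3a1 were lower, at -0.50, -0.33, -0.28 and -0.18. The Rps20 value rests on its annotation: its GC content of 41.3% is that of the 1 matched transcript, which is 3706 bases long with a coding part of 360. The other 28 messages were matched to 1 or more transcripts of shorter average length. How far GC content and length account for the higher values of the messages in the eluates was not tested.

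**Figure D2:**
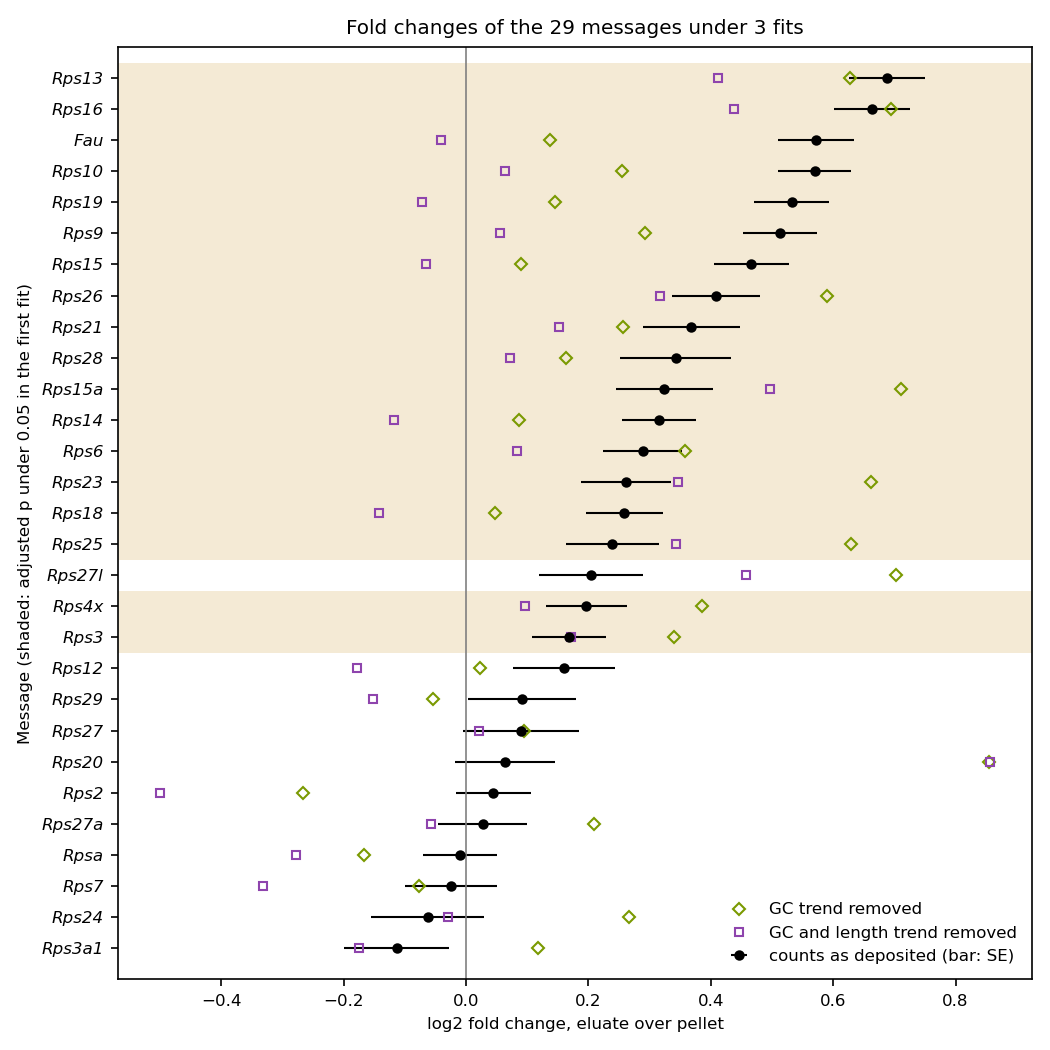
Log2 fold change of eluate over pellet for each message from the counts as deposited (black, with SE) and after removal of each library's trend in GC content (diamonds) or in GC content and length (squares); shading marks the 18 messages called in the first fit. Rps13 and Rps16 stay near 0.4 or above in all 3 fits, Fau moves to -0.04, Rps2 to -0.50 and Rps20 to 0.86.

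**Figure D3:**
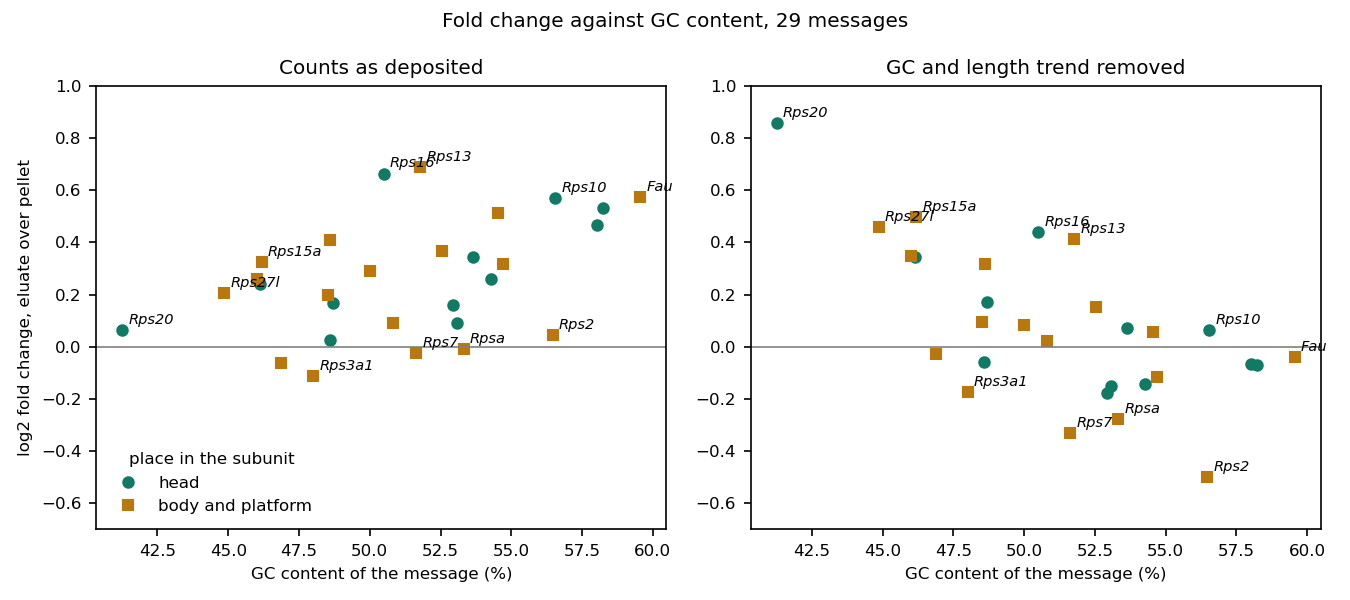
Log2 fold change of eluate over pellet against the GC content of each message, from the counts as deposited (left) and after removal of the trend in GC content and length (right), with head proteins as circles and body and platform proteins as squares. The points rise with GC content on the left (r = 0.43) and fall with it on the right (r = -0.65), with no separation of head from body and platform.

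On the TPM scale, which adjusts for length, 26 of the 29 messages stood among the 100 highest genes, and their ranks over all genes ran from 6 to 217. Rps27, Rps14 and Rps2 led them. Rps14 had 9217 ± 63.1 TPM in the eluates and 7941 ± 573 TPM in the pellets, and Rps2 had 8164 ± 265 TPM in the eluates and 8643 ± 538 TPM in the pellets (SD, n = 3 each). At the low end, Rps3a1 had 1059 ± 70.6 TPM in the eluates and 1184 ± 34.4 TPM in the pellets. Rps20 was lowest, with 672 ± 14.4 TPM in the eluates and 640.0 ± 15.8 TPM in the pellets, and its TPM is divided by the 3706 bases of its matched transcript. Neighbours in this order often lay within each other's spread.

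Several of these genes have processed copies elsewhere in the genome, to which near-identical reads can be assigned. For 25 of the 29, 98 transcripts of 95 pseudogenes shared over 50% of their 31-base subsequences with the message. Their counts were 270.2% of the gene's own for Rps3a1, 55.0% for Rps13, 25.2% for Rps7 and 16.7% for Rps2, and below 5% for the rest, so the levels of at least these 4 are uncertain. The search covered only genes annotated as pseudogenes. It left out Rps27rt, annotated as protein-coding, which held 104 to 115 CPM in the eluates and 69.6 to 74.5 CPM in the pellets and may exchange reads with Rps27. Rps3a2, a copy of Rps3a1, held more counts than the gene, with 1331, 1413 and 1411 CPM in the eluates, against 1241, 1551 and 1482 CPM in the pellets. Rps3a3 held 805, 841 and 752 CPM in the eluates, against 766, 978 and 933 CPM in the pellets. Both overlapped between groups as Rps3a1 does.

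Rps13-ps1, a copy of Rps13, was higher in the eluates as its parent was, with 552, 599 and 533 CPM in the eluates, against 334, 445 and 352 CPM in the pellets (0.57 ± 0.0979; SE; edgeR adjusted p = 0.00037). With the counts of all these pseudogenes added to their genes, none of the 29 calls changed. The 18 messages stayed higher, where 24.6% of all genes were, and the other 11 stayed uncalled, where 28.3% of all genes were lower. Rps13 was then at 0.65, Rps3a1 at -0.09, Rps7 at -0.01 and Rps2 at 0.06.

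**Figure D4:**
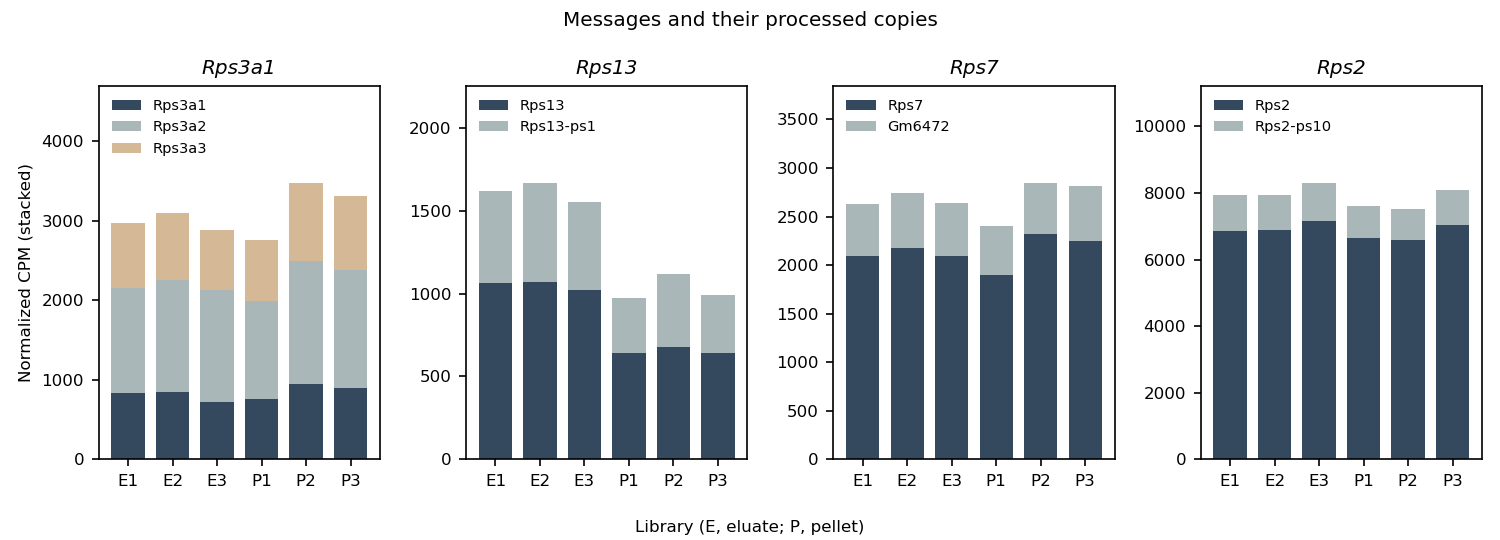
Normalized CPM of Rps3a1, Rps13, Rps7 and Rps2 in each library (dark) with the most abundant processed copies stacked on top (light), eluates E1 to E3 left of pellets P1 to P3. Rps3a2 and Rps3a3 together exceed Rps3a1 in every library, and the sum for Rps13 is higher in every eluate, as the gene alone is.

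Of the 29 genes, 20 had at least 2 transcripts at 1 TPM or more, and 9 had 1. The share of the leading transcript separated the groups in 5 genes, lower in the eluates in 4 of them (Rps2, Rps27, Rps27l and Rpsa) and higher in Rps25. No share over all genes is given beside this count, which therefore describes only these genes. Most of the 5 differences were small: Rps2-208 made up 91.8%, 91.8% and 91.7% of the Rps2 TPM in the eluates, against 93.7%, 94.4% and 94.4% in the pellets. Rpsa had the largest separate difference. Rpsa-204, with 646 untranslated bases before and 65 after the coding sequence, made up 49.2%, 51.1% and 48.6% in the eluates, against 52.7%, 59.0% and 57.2% in the pellets. Rpsa-201, with the same coding sequence length and 175 and 875 untranslated bases, made up the rest.

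For Rps7 the share of Rps7-203 was 55.6%, 58.5% and 52.0% in the eluates, against 58.5%, 65.1% and 66.8% in the pellets. The eluates were lower by 8.08 points on average, but eluate 2 and pellet 1 met. Rps24 uses alternative last exons, and eluate 3 stood alone there: Rps24-202 made up 70.5%, 70.9% and 60.1% in the eluates, against 69.7%, 72.7% and 72.6% in the pellets. Rps24-201 filled the gap, with 21.8%, 21.8% and 32.6% in the eluates, against 22.4%, 19.95% and 20.4% in the pellets. Transcripts of a gene share most of their reads, so these shares are estimates and were not tested.

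**Figure D5:**
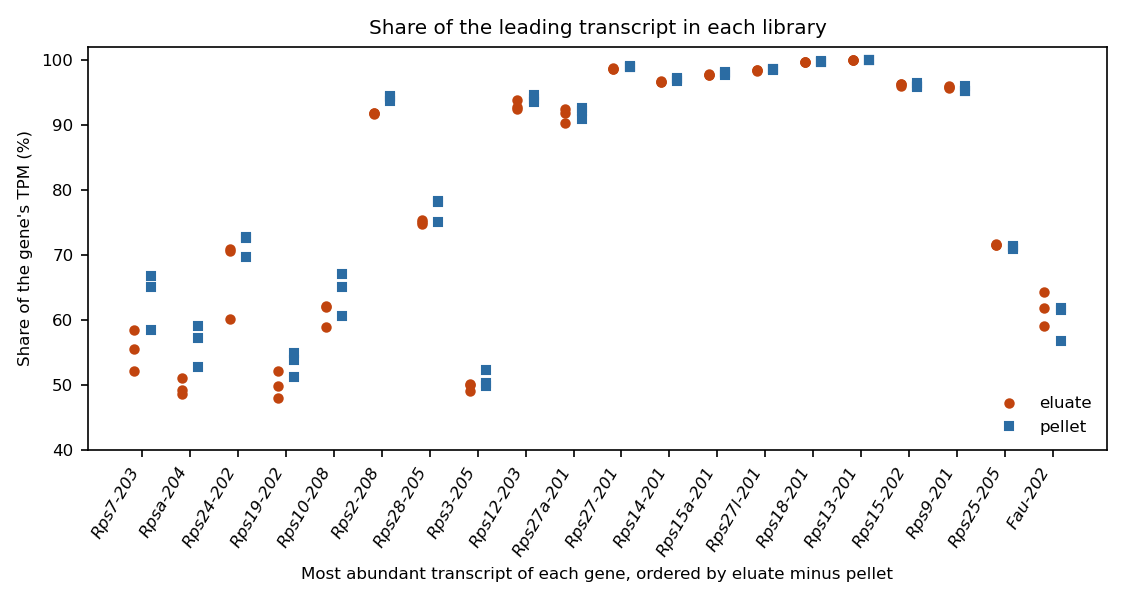
Share of each gene's TPM held by its most abundant transcript in the 3 eluates (left of each pair) and 3 pellets (right), for the 20 genes with several transcripts, ordered by the difference of eluate minus pellet; the axis starts at 40%. Rps7-203 and Rpsa-204 lie lowest in the eluates relative to the pellets, and the other transcripts differ by under 5 points.

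Lists of related messages are set beside the 29. Of 49 large subunit messages 33 were higher and 3 lower, with a median of 0.30. Rplp2, an acidic stalk protein, was at 0.80 (edgeR adjusted p = 2.99e-07), Rpl13a, the most abundant by CPM, at 0.22 and Rpl5, which carries 5S RNA, at -0.41 (edgeR adjusted p = 0.000393). After trend removal 13 of the 49 were higher and 12 lower, where 19% and 15.9% of all genes were. Rplp2 was then at 0.31, Rpl13a was called lower at -0.19 (edgeR adjusted p = 0.00516), and Rpl5 was at 0.11 and not called (edgeR adjusted p = 0.0945). Of 51 messages for factors that assemble the small subunit, 11 were higher and 32 lower, with a median of -0.33. Bud23, which methylates the small subunit RNA, was at 0.62, the methyltransferase gene Fbl, the most abundant, at 0.57, and Utp20, a processome component, at -1.47 (edgeR adjusted p = 3.37e-08). After trend removal 12 of the 51 were higher and 25 lower, where 19% and 15.9% of all genes were. Bud23 was then at 0.17 and Utp20 at -0.76, both still called, while Fbl was at 0.04 and not called (edgeR adjusted p = 0.627).

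Of 28 initiation factor messages 8 were higher and 17 lower, with a median of -0.29. With the GC trend alone removed 11 were higher and 9 lower, with a median of 0.06, where 22.3% and 18.8% of all genes were. With the length trend removed as well, 9 were higher and 14 lower, with a median of -0.08, where 19% and 15.9% of all genes were. Eif3f, a subunit of the factor that coats the small subunit, was at 0.74, Eif4a1, the helicase that unwinds leaders and the most abundant, at -0.20, and Eif2s3x, a subunit of the factor that carries initiator transfer RNA, at -0.95 (edgeR adjusted p = 1.15e-07). With the GC and length trend removed Eif3f was at 0.78, Eif4a1 at -0.14 and Eif2s3x at -0.39, all still called. Of 15 messages for proteins that bind or modify the small subunit, 6 were higher and 6 lower, with a median of 0.02. Rnf10, a ubiquitin ligase acting on the small subunit, was at 0.55, the scaffold protein gene Rack1, the most abundant, at 0.17, and G3bp2, a stress granule protein, at -1.01 (edgeR adjusted p = 9.71e-08). After trend removal 4 of the 15 were higher and 4 lower, where 19% and 15.9% of all genes were. Rnf10 was then at 0.28 and G3bp2 at -0.31, both still called, while Rack1 was at -0.02 and not called (edgeR adjusted p = 0.82). The counts from the deposited values read against 24.5% higher and 28.2% lower over all genes, and the difference between lists was not tested.

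The authors' deposited table, which holds genes past an adjusted p of 0.05, lists 18 of the 29 messages, all with positive log2 fold changes. They are the 18 called here. In the authors' deposited table Rps13 is at 0.70, Rps16 at 0.69, Fau at 0.53, Rps10 at 0.52 and Rps3 at 0.16. For these 18 the CPM used here, divided by the mean count of the authors' deposited table and set to the median over 4849 genes in both, was 0.996 to 1.00, so transcripts left unmatched took little from them.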

How the data were processed

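E14 poly(A) RNA was sequenced in 3 eluate and 3 pellet libraries, grouped by sample title. The submitters' processing notes name Salmon 1.10.3, STAR 2.7.11b, cutadapt 4.7, DESeq2 1.44.0 and build GRCm39, and no settings. Each deposited library file holds, per its header, an estimated count and a TPM for every transcript. The authors' deposited table gives a mean normalized count (a signal averaged over libraries), log2 fold changes with SE, a Wald score and p-values, per the file headers.

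Identifiers of 76858 among 84226 transcripts were found in GENCODE mouse release 21, which supplied names, lengths and GC content. The rest, 1.63% to 2.35% of a library's counts, were left out. Counts were summed by gene, rounded, and compared with edgeR 4.0.16 under R 4.3.3 by its robust quasi-likelihood test. TMM factors, the default count filter and group as the only term were used, with Benjamini-Hochberg adjustment over 13231 genes. The SE is the absolute log2 change over the square root of F. Alternatives were DESeq2 1.42.0, limma 3.58.1 on log2(TPM + 1) and log2(TPM + 0.1) for genes averaging at least 1 TPM, other scalings and filters, a replicate block, libraries left out, and offsets from splines (5 degrees of freedom) of each library on GC content and length. The test was checked on simulated data, where it missed some changes, most of them at the smallest fold, and made some false calls. Plots were drawn with matplotlib 3.10.9, and tables made with pandas 2.3.3 in Python 3.11.15. Salmon divides reads among near-identical transcripts, so genes with processed copies are uncertain.

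The 29 messages, the lists beside them and the rule for values in full (the 4 highest and 4 lowest fold changes, the 3 highest and 3 lowest TPM, the smallest p, and messages picked for known biology) were chosen with earlier results of these data known. In each other list the smallest p in each direction and the highest mean CPM are named.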

Additional observations from a re-analysis of the deposited data

How the results depend on the processing

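After removal of each library's GC and length trend, 9 small subunit messages were higher and 5 lower, with a median of 0.056. In that fit 13 large subunit messages were higher and 12 lower, where 19% and 15.9% of all genes were. Single messages then changed sign: Rps2 at -0.50, Rps12 at -0.18, Rps14 at -0.12, Rps15 at -0.066, Rps18 at -0.14, Rps19 at -0.072, Rps27a at -0.058, Rps29 at -0.15 and Fau at -0.041. With GC alone removed, 2 small and 0 large subunit messages, and 9 initiation factors, were lower and 3 partners higher. Over all genes, 22.3% were higher and 18.8% lower in that fit. The signs of Rps2 (-0.27), Rps3a1 (0.12), Rps24 (0.27) and Rps29 (-0.055) turned. Why length and GC move with the comparison was not tested.

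Deviations of equally numbered eluates and pellets correlated at 0.07, 0.15 and -0.01, and those of unequal numbers at -0.18 to 0.11. So few values cannot decide whether equal numbers mark shared material, and the labels give no shared source. With the replicate number as a block, 19 messages were higher, Rps27l added (edgeR adjusted p = 0.0187), and 0 lower. The block after trend removal gave 10 higher and 6 lower, a median of 0.055, and 15 higher and 12 lower in the large subunit list. In that block fit the signs of Rps2 (-0.50), Rps12 (-0.17), Rps14 (-0.12), Rps15 (-0.065), Rps18 (-0.14), Rps19 (-0.069), Rps27a (-0.057), Rps29 (-0.15) and Fau (-0.040) turned.

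Leaving out a library or a numbered pair gave 12 to 19 higher and 0 to 2 lower messages, a median of 0.19 to 0.30 and a share difference of 0.985 to 1.06 points. The large subunit list had 26 to 35 higher and 2 to 8 lower, the assembly list 9 to 14 higher and 24 to 32 lower, the initiation list 5 to 8 higher and 12 to 18 lower, and the partner list 2 to 6 higher and 5 to 6 lower. Ranges that crossed 0 were -0.11 to 0.037 for Rps7, -0.033 to 0.15 for Rps20, -0.18 to 0.042 for Rps24, -0.021 to 0.21 for Rps27, -0.058 to 0.081 for Rps27a, -0.039 to 0.19 for Rps29 and -0.031 to 0.014 for Rpsa. Of the 18 calls, 14 held in all 6 fits without a library and 12 also in all 3 without a numbered pair. Over all genes, 24.5% were higher and 28.2% lower with all libraries, and 27.5% and 29.9% without pellet 1. For the other left-out fits, the blocks, limma and DESeq2 no share over all genes is given. Their counts therefore describe only how far the calls hold.

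With limma on log2(TPM + 1) or log2(TPM + 0.1), 5 initiation factors and 1 partner were higher, Rps2 was at -0.081 and Rps27a at -0.022. Rpsa changed sign without scaling factors (0.0057), without a count filter (0.0041) and with DESeq2 (0.00047). Leaving out mitochondrial genes made the share difference 0.832 points. Other settings left these counts within 1.5 times. Transcript shares were not recomputed under other settings. The number of libraries and the spread between pellets limit the precision.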

Other observations

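The processed copies and relatives of small subunit genes named here were chosen after their values were seen. Of the 36 copies of the 29 genes that could be tested, 10 were called higher and 0 lower by edgeR, beside 24.5% and 28.2% of all genes. The part called higher was thus close to that over all genes. Rps26-ps1 had 72.5, 77.2 and 82.5 CPM in the eluates, against 44.8, 48.8 and 45.2 CPM in the pellets. Its log2 fold change was 0.74 (edgeR adjusted p = 3.02e-06), and 0.63 after removal of the GC and length trend, while its parent Rps26 was at 0.41 and 0.32. The groups did not overlap.

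Rps4l and Rps27rt are not among the copies counted above. Rps4l had 825, 793 and 775 CPM in the eluates, against 547, 466 and 484 CPM in the pellets, at 0.68 (edgeR adjusted p = 1.55e-06), beside 0.20 for its X-linked relative Rps4x. With the GC and length trend removed Rps4l was at 0.02 (edgeR adjusted p = 0.81), and its GC content was 61.3%. Rps27rt, annotated as protein-coding, had 106, 115 and 104 CPM in the eluates, against 74.5, 70.3 and 69.6 CPM in the pellets. It was at 0.60 (edgeR adjusted p = 9.05e-06) and at 0.84 after trend removal, beside 0.09 and 0.02 for Rps27. The difference between copy and parent was not tested, and reads can be exchanged between them.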
